A study of Oncorhynchus mykiss with 32 samples.

Results

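Liver transcripts of 2 intracellular lipid carriers, the heart form of the fatty acid-binding proteins (H-FABP) and the binding protein of acyl-CoA (ACBP), were examined through the 4 cDNA clones that carry these names, tcav0002.b.06 and tcay0002.n.16 for H-FABP and 1RT36I05_A_E03 and tcbk0030.c.13 for ACBP. They are 4 of the 9023 trout clones spotted on each nylon array, and all 4 had a value on every one of the 32 arrays and were among the 7763 clones tested. Each array was hybridized with radiolabelled cDNA from the liver of 1 rainbow trout. The fish belonged to a lean (L) or a fat (F) line, separated by selection on the fat content of muscle, and ate from first feeding until 6 months a diet of 10% (LE) or 23% (HE) lipid, the difference being mainly fish oil. Each combination of line and diet (written L-LE, F-LE, L-HE and F-HE) was represented by 8 livers from 3 tanks. The tank was read from the number after the group in each sample's label, which does not itself name a tank. The number of arrays limits the precision of every value. P-values of tests over livers set a difference against the spread between these livers. Each tank held fish of 1 line on 1 diet, so that livers of 1 tank are not separate replicates of a diet. The names of the clones come from lists that the study drew up on these same fish, 3 clones having been listed there for diet and tcbk0030.c.13 for line, so that a diet or line difference in them is not independent evidence of its direction.

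Long-chain fatty acids are poorly soluble in water, and inside the cell fatty acid-binding proteins carry them between membranes and enzymes. H-FABP is named from heart, where it serves the supply of fatty acids for oxidation, and mammalian liver makes mostly another member of the family. In several fish species, as the paper states, H-FABP has been detected in liver as well. Its protein was also identified in livers of these fish. ACBP binds the activated form, long-chain acyl-CoA esters, with high affinity, and keeps a pool of them for synthesis of glycerolipids and for oxidation. The liver takes up, desaturates, esterifies, exports and burns fatty acids, so that both carriers stand between its main lipid pathways.

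Levels are given as log2 signal, corrected for the DNA in the spot, with 0 at the median of the array. A difference of 1 is a 2-fold change. In livers of fish fed the HE diet, all 4 clones had a lower mean signal than in fish fed LE, in both lines. The differences of the ACBP clone tcbk0030.c.13 were the smallest, -0.24 in L and -0.15 in F with all 32 arrays. Each was smaller than the standard deviation of either diet group, so that this clone did not separate the diets. Within a single line, none of the 4 passed the threshold (limma adjusted p under 0.15) with all arrays or without membrane 59. With membrane 59, an F-HE array, left out, the ACBP clone 1RT36I05_A_E03 fell by 0.82 on the log2 scale and the H-FABP clone tcay0002.n.16 by 0.52, both past the threshold, whereas with all 32 arrays none of the 4 clones passed it. Both calls were lost, with differences of -0.21 and -0.16, when the signal of clones nearby in name order was subtracted. This setting, described further on, was chosen after seeing the data. The subtracted clones were themselves lower on HE, so that smaller differences followed from their values. Neither line nor the interaction of line and diet gave a call for any of the 4 clones.

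One array stood apart from all others. The Spearman correlation of membrane 59 with another array had a median of 0.16, against 0.91 to 0.97 for 26 arrays and 0.83 to 0.90 for the remaining 5 (membrane 62 of F-LE, 65 of F-HE, and 53, 56 and 68 of L-LE). On membrane 59 the tenth of clones that was brightest elsewhere had a median of 0.19, against 3.54 in the other 7 F-HE livers, and 96.2% of these 766 clones were lower there. The control spots, taken to be luciferase, read 0.214 on the log10 scale on that membrane and at least 1.72 on the others. The bright clones 1RT36I05_A_E03, tcay0002.n.16 and tcav0002.b.06 fell among them, with deficits of -5.36, -4.40 and -4.21 log2 units from the mean of the other F-HE livers, whereas tcbk0030.c.13 differed from that mean by only -0.16. The tenth of clones dimmest elsewhere read higher on membrane 59, with a median of -0.68 against -2.08 in the other F-HE livers. Only 3.99% of these 777 clones were lower there. The dim clone tcbk0030.c.13 was not raised in this way and lay above only 0.767% of clones on that membrane. Results are therefore given with and without this array.

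The first H-FABP clone, tcav0002.b.06, lay above 92.6% of the clones tested in mean signal, a rank that depends on the clone as well as on the transcript. In L-LE livers it ranged from 1.73 to 4.03 with a median of 3.06, and in L-HE livers from 2.57 to 2.82 with a median of 2.66. In F-LE it ranged from 3.14 to 4.21 with a median of 3.49, and in F-HE from -1.30 on membrane 59 and 2.29 on the next lowest array to 3.34. The diet groups overlapped in both lines, since L-LE membrane 56 (1.73) lay below all L-HE livers and the highest F-HE livers reached into the F-LE range. Its spread was uneven between groups, with a standard deviation of 0.67 (n = 8) in L-LE and 0.075 (n = 8) in L-HE. Only 0.296% of the clones tested had a smaller standard deviation in L-HE.

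The second H-FABP clone, tcay0002.n.16, was brighter than 97.96% of clones. It ranged from 4.17 to 5.28 in L-LE (median 4.80) and from 3.71 to 4.77 in L-HE (median 4.24). In F-LE it ranged from 4.62 to 5.20 (median 5.07), and in F-HE from 3.88 to 4.95 apart from 0.039 on membrane 59. In each line the upper HE livers lay within the LE range. Its standard deviation was between 0.25 and 0.35 in the 4 groups once membrane 59 was left out (n = 7 or 8).

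The ACBP clone 1RT36I05_A_E03 was brighter than 97.98% of clones. It ranged from 3.73 to 5.63 in L-LE (median 5.14), with the lowest value on membrane 56, and from 3.93 to 4.42 in L-HE (median 4.25). In F-LE it ranged from 4.52 to 5.57 (median 5.41), and in F-HE from 3.93 to 4.73 apart from -1.06 on membrane 59. In the F line the overlap came down to 1 HE liver, on membrane 65 at 4.73, which lay above the lowest LE liver (membrane 72, 4.52). In L-LE 6 of the 8 livers lay above the highest L-HE liver.

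The other ACBP clone, tcbk0030.c.13, had a signal lower than all but 3.31% of the clones tested. In the L line it ranged from -2.43 to -0.90 on LE (median -2.23) and from -2.81 to -1.97 on HE (median -2.17). In the F line it ranged from -2.44 to -1.61 on LE (median -2.06) and from -2.81 to -1.86 on HE (median -2.11). The 4 groups overlapped, although 3 L-HE livers lay below every L-LE liver. The L-LE liver on membrane 68, at -0.90, stood above the next highest of its group (-1.98). Spots of water had no value on any array, so that no floor is available against which this dim signal could be read.

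**Figure D1:**
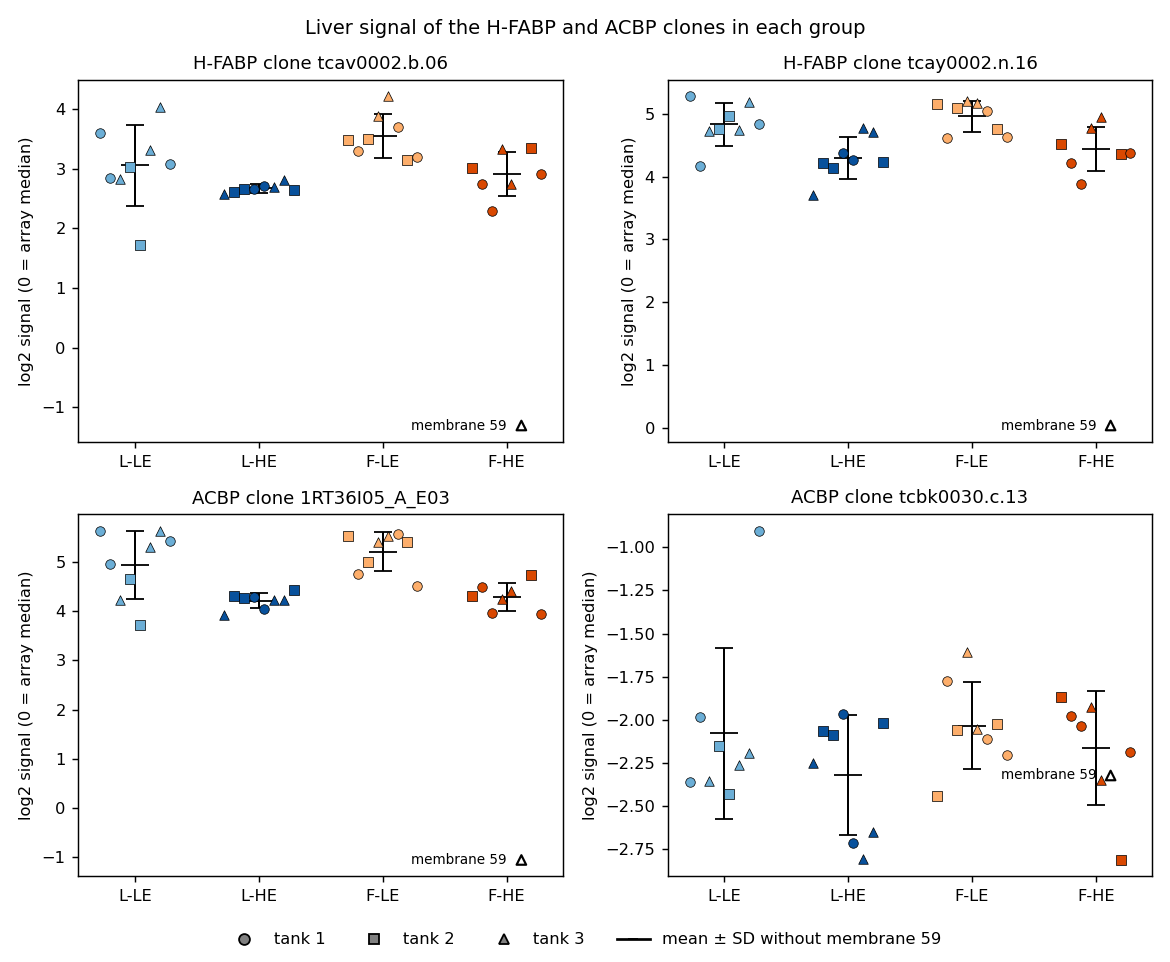
Log2 signal (y axis, 0 at the array median) of each clone in the 32 livers by group (x axis), with the tank shown by the symbol and the mean ± SD without membrane 59 as a bar. Membrane 59 (open symbol) lies at -1.30, 0.039 and -1.06 for the first 3 clones, far below the other F-HE livers, but within its group for tcbk0030.c.13.

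Group means followed the same order of diets for the 3 brighter clones. Without membrane 59, ACBP clone 1RT36I05_A_E03 stood at 5.21 ± 0.40 (SD, n = 8) in F-LE, 4.95 ± 0.69 in L-LE, 4.30 ± 0.29 (n = 7) in F-HE and 4.22 ± 0.16 in L-HE. The gap between the lines on either diet was smaller than the SD of a group. H-FABP clone tcay0002.n.16 gave 4.96 ± 0.25 in F-LE, 4.83 ± 0.34 in L-LE, 4.44 ± 0.35 in F-HE and 4.30 ± 0.33 in L-HE. For tcav0002.b.06 the order was 3.55 ± 0.37 in F-LE, 3.06 ± 0.67 in L-LE, 2.91 ± 0.37 in F-HE and 2.67 ± 0.075 in L-HE, and here L-LE and F-HE were close to each other. For tcbk0030.c.13 the means, from -2.32 ± 0.35 in L-HE to -2.03 ± 0.25 in F-LE, differed by about as much as the SD of a group. In pieces of liver, fewer cells of a type and less RNA per cell cannot be told apart.

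The first comparison asked what the HE diet changed whatever the line. Over all 32 arrays limma called 19 of 7763 clones at an adjusted p under 0.15 (0.245%), and none of the 4 clones. The differences between HE and LE were -1.16 (95% interval -1.87 to -0.45, limma adjusted p = 0.522) for 1RT36I05_A_E03, -0.80 (-1.38 to -0.22, adjusted p = 0.865) for tcay0002.n.16, -0.77 (-1.36 to -0.19, adjusted p = 0.954) for tcav0002.b.06 and -0.20 (-0.46 to 0.071, adjusted p = 1) for tcbk0030.c.13. By the two-way analysis of variance of the study's methods, at an unadjusted p under 0.01, which took in 1.11% of all clones, 1RT36I05_A_E03 passed and the other 3 did not.

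Without membrane 59 the same fit called 41 clones (0.528%), among them 2 of the 4. With 1 further array left out the count was between 33 and 63, the latter without membrane 20. The ACBP clone 1RT36I05_A_E03 had the fourth smallest p of all clones and differed by -0.82 (95% interval -1.13 to -0.51, limma adjusted p = 0.0127), which is a 1.77-fold lower signal on HE. H-FABP clone tcay0002.n.16 differed by -0.52 (-0.76 to -0.29, adjusted p = 0.0304), a 1.44-fold lower signal. H-FABP clone tcav0002.b.06 had almost the same estimate, -0.51 (-0.82 to -0.21), but a larger spread and an adjusted p of 0.229. It was called (adjusted p = 0.0166, difference -0.61) when the L-LE array on membrane 56 was left out as well, and no other single array changed a diet call of the 4 clones beyond membrane 59. ACBP clone tcbk0030.c.13 differed by -0.19 (-0.45 to 0.081, adjusted p = 0.735). A change as large as that of the other ACBP clone lay outside the interval of this dim clone, for which no floor is available. How far its signal follows the ACBP transcript was not tested. The analysis of variance without membrane 59 took in 1.71% of clones and 3 of these 4. The differences of the 3 brighter clones were smaller without membrane 59, on which all 3 were far below the F-HE mean, and the standard error of the difference of 1RT36I05_A_E03 went from 0.35 to 0.15.

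**Figure D2:**
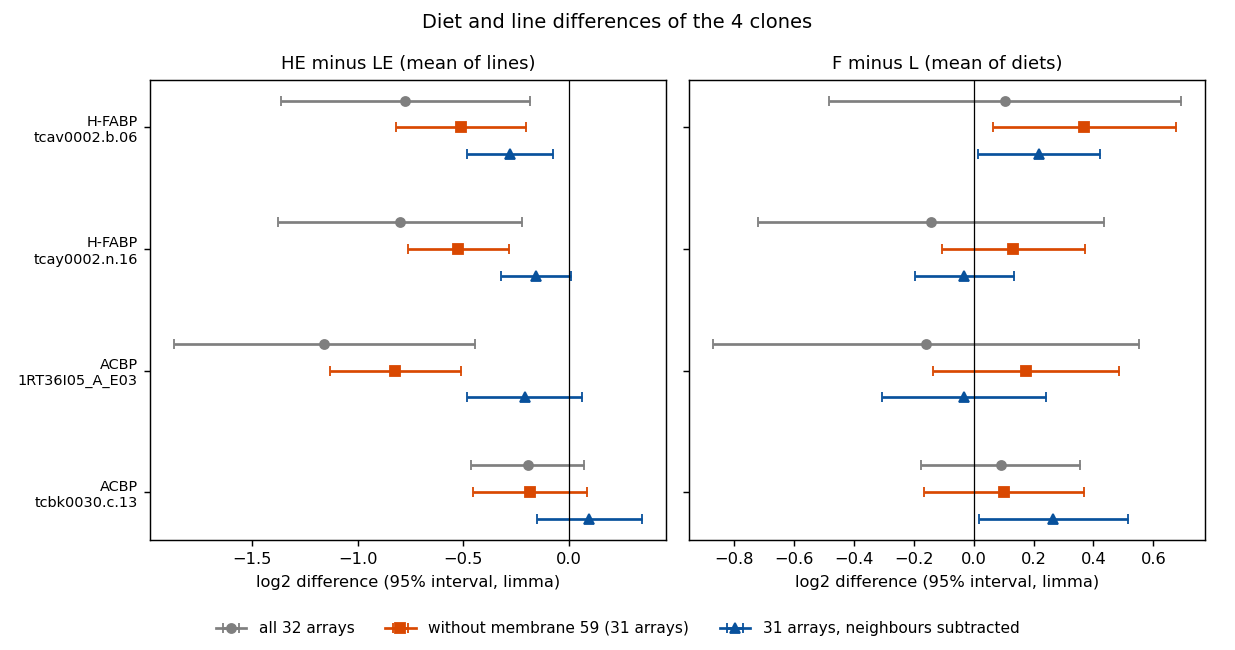
Log2 difference between diets (left) and lines (right) on the x axis for each clone, as limma estimates with 95% intervals, over all 32 arrays, without membrane 59, and without it after subtracting the mean of the clones 2 steps away in name order. Diet estimates of 3 clones lie below 0 in each of the 3 settings and move towards 0 from the first to the last, while line estimates lie between -0.16 and 0.37, with 3 intervals that do not reach 0, of tcav0002.b.06 without membrane 59 and of tcav0002.b.06 and tcbk0030.c.13 after the subtraction.

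Within lines the differences had the same sign. In the F line without membrane 59, 1RT36I05_A_E03 differed by -0.91 between HE and LE (n = 7 and 8, two-sided exact permutation test over livers, p = 0.00109), tcav0002.b.06 by -0.64 (exact p = 0.00435) and tcay0002.n.16 by -0.52 (exact p = 0.00653). In the L line the differences were -0.73 (n = 8 and 8, exact p = 0.0155), -0.39 (exact p = 0.137) and -0.53 (exact p = 0.00995) in the same order of clones. The L difference of tcav0002.b.06 ran from -0.58 to -0.25 with 1 array left out. It became -0.65 without membranes 53, 56 and 68, the L-LE arrays of low correlation (5 LE and 8 HE livers). The exact p was then 0.000777, the smallest that 1287 regroupings allow. Membranes 53 and 56 held the only livers of tank 2 of L-LE, so that this setting dropped a whole tank. For tcbk0030.c.13 the differences were -0.13 in F (exact p = 0.417) and -0.24 in L (exact p = 0.308). With membrane 59 kept in, the F-line differences of the 3 brighter clones were -1.58, -1.16 and -1.07 (exact p = 0.000311, 0.00249 and 0.00342). These p-values are not adjusted over the 16 tests of this kind. By limma none of the 4 clones was called within a line with all arrays or without membrane 59, the lowest adjusted p being 0.186 for 1RT36I05_A_E03 in F without membrane 59. Without the 6 arrays of low correlation, however, 1RT36I05_A_E03 was called in both lines (-0.96 in F, limma adjusted p = 0.0421, and -0.94 in L, adjusted p = 0.0619) and tcav0002.b.06 in F (-0.77, adjusted p = 0.0951). The L call again lacked tank 2 of L-LE, whose mean of 1RT36I05_A_E03 lay within the range of the L-HE tanks. With array weights, 1RT36I05_A_E03 (-0.96, adjusted p = 0.00569), tcav0002.b.06 (-0.78, adjusted p = 0.0177) and tcay0002.n.16 (-0.59, adjusted p = 0.0619) were called in F. Both settings called more clones of the whole array. Without the 6 arrays 33 of 7711 clones were called in F and 16 in L, and with array weights 154 of 7763 in F. Leaving out 1 array besides membrane 59 gave calls of 1RT36I05_A_E03 in F (limma adjusted p = 0.0920 without membrane 56, 0.0830 without 72 and 0.142 without 68) and in L (adjusted p = 0.129 without membrane 56 and 0.142 without 20), and of tcay0002.n.16 in L (adjusted p = 0.109 without membrane 20). Of all clones tested, 0.0515% were called for diet in F and 0% in L with all arrays, and 0% in F and 0.0258% in L without membrane 59. These counts rested on single arrays. Without membrane 59 the L count of 2 became 171 when the L-LE array on membrane 20 was also left out and at most 15 without any other, and the F count of 0 became at most 13 (without membrane 62 or 68).

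Diet was given to tanks, so that differences were also tested over the means of the 12 tanks, 3 per group, where 400 regroupings allow no p below 0.005. Without membrane 59 the tank means of tcay0002.n.16 were 4.76, 4.86 and 4.88 in L-LE and 4.32, 4.20 and 4.40 in L-HE, with no overlap, and 4.76, 5.00 and 5.19 in F-LE against 4.16, 4.44 and 4.86 in F-HE, with overlap. The difference over tanks was -0.51 (two-sided exact permutation p = 0.01, 12 tanks). For 1RT36I05_A_E03 the tank means of F-LE (4.95, 5.31 and 5.46) lay above those of F-HE (4.13, 4.52 and 4.33), whereas in the L line tank 2 of L-LE, at 4.19, lay within the range of L-HE (4.13 to 4.33). That mean came from 2 livers, on membranes 53 and 56, both arrays of low correlation. The difference of 1RT36I05_A_E03 over tanks was -0.78 (exact p = 0.01). For tcav0002.b.06, tank 2 of L-LE, at 2.38 and from the same 2 livers, lay below every L-HE tank (2.64 to 2.69). Its other L-LE tanks (3.17 and 3.39) lay above them, and every F-LE tank (3.38 to 4.05) lay above F-HE (2.65 to 3.18). The tank difference of tcav0002.b.06 was -0.48 (exact p = 0.05) and that of tcbk0030.c.13 -0.19 (exact p = 0.15). With membrane 59 kept, these p-values were 0.005 for tcay0002.n.16, the smallest possible, 0.01 for 1RT36I05_A_E03, 0.05 for tcav0002.b.06 and 0.13 for tcbk0030.c.13. Fitted to the tank means of all arrays, limma called 0 of the 7763 clones for diet.

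The second comparison asked for differences between the lines whatever the diet. Limma called 0 of the 7763 clones over all arrays (0%, with 258 at an unadjusted p under 0.05 and 53 by the analysis of variance at 0.01) and 1 without membrane 59 (0.0129%), which was none of the 4. Over all arrays the F minus L differences were 0.11 for tcav0002.b.06, -0.14 for tcay0002.n.16, -0.16 for 1RT36I05_A_E03 and 0.090 for tcbk0030.c.13, each with an adjusted p above 0.99. Without membrane 59 all 4 estimates were positive, 0.37 (95% interval 0.063 to 0.67), 0.13 (-0.11 to 0.37), 0.17 (-0.14 to 0.49) and 0.10 (-0.17 to 0.37), with adjusted p between 0.899 and 0.956. Over tank means tcav0002.b.06 was higher in F by 0.45 (two-sided exact permutation p = 0.04 over 12 tanks, unadjusted, 1 of 8 such tests without membrane 59), against 0.21 (exact p = 0.55) with that array. For the other 3 clones the exact p over tanks without membrane 59 was between 0.195 and 0.35.

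The interaction of line and diet was called for no clone on the array by limma, with membrane 59 (0%, 523 clones at an unadjusted p under 0.05 and 53 by the analysis of variance at 0.01) or without it (0%, 355 at an unadjusted p under 0.05). The estimates were -0.86, -0.78 and -0.54 for 1RT36I05_A_E03, tcav0002.b.06 and tcay0002.n.16 over all arrays and -0.18 (95% interval -0.81 to 0.44), -0.25 (-0.86 to 0.36) and 0.012 (-0.46 to 0.49) without membrane 59. The more negative diet difference of the F line with all arrays thus rested on 1 array, in size for the first 2 clones and in sign for the last.

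Next, clones of the same name were compared liver by liver, after the mean of the group was taken from each value. The paper describes its 2 H-FABP cDNAs as different transcripts of similar sequence, which it proposes may be isoforms. Whether these 2 clones read 1 transcript or 2 was not tested. The 2 H-FABP clones followed each other. Over the 32 livers their Pearson r was 0.89 (permutation p = 0.00177, 0.00531 after Benjamini-Hochberg adjustment over the 6 pairs of clones) and their Spearman rho 0.79 (permutation p = 1e-05, the smallest that 100000 permutations within groups can give, adjusted 6e-05). Without membrane 59 r was 0.43 (permutation p = 0.0226, adjusted 0.0677) and rho 0.58 (permutation p = 0.00124, adjusted 0.00744), so that after adjustment the relation passed 0.05 by rank only. Over these 31 livers, leaving out the 2 livers farthest from the median of tcav0002.b.06 (membranes 56 and 66) raised r to 0.60. Membrane 56 was an exception, with tcav0002.b.06 at 1.73, the lowest of L-LE, and tcay0002.n.16 at 4.96, the third highest of that group. Within groups of 8 the Spearman rho was 0.52 in L-LE (exact permutation p = 0.197), 0.81 in L-HE (exact p = 0.0218) and 0.79 in F-LE (exact p = 0.0279), and it was 0.25 over the 7 F-HE livers without membrane 59 (exact p = 0.595). The difference between the 2 clones varied between livers with an SD of 0.41 within groups, as large as the spread of tcav0002.b.06 itself (0.43) and larger than that of tcay0002.n.16 (0.32).

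The 2 ACBP clones showed no such relation. Their rho was 0.14 over 32 livers (permutation p = 0.369) and 0.0060 over 31 (permutation p = 0.975), with r of 0.13 and 0.15 (permutation p = 0.439 and 0.568), and the adjusted p was 0.484 or more in each case. Within groups rho ran from -0.29 over the 7 F-HE livers without membrane 59 (exact permutation p = 0.556) to 0.71 in L-HE (exact p = 0.0576, n = 8). Leaving out membranes 45 and 56, the 2 livers farthest out on 1RT36I05_A_E03, brought r over 31 livers to -0.0065. The bright ACBP clone went instead with an H-FABP clone. Its rho with tcav0002.b.06 was 0.58 over 31 livers (permutation p = 0.00425, adjusted 0.0127) and that with tcay0002.n.16 was 0.32 (permutation p = 0.0921, adjusted 0.156). The r was 0.76 with tcav0002.b.06 (permutation p = 9e-05, adjusted 0.00054) and 0.34 with tcay0002.n.16 (permutation p = 0.0738, adjusted 0.148). By r, tcav0002.b.06 was thus closer to this ACBP clone than to the other H-FABP clone (0.43). Without membranes 56 and 66 these 2 values of tcav0002.b.06 were 0.58 and 0.60. The dim ACBP clone had rho of -0.063 with tcav0002.b.06 and -0.31 with tcay0002.n.16 (permutation p = 0.732 and 0.104). Membrane 59 alone raised the r between the 3 bright clones to between 0.89 and 0.95.

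**Figure D3:**
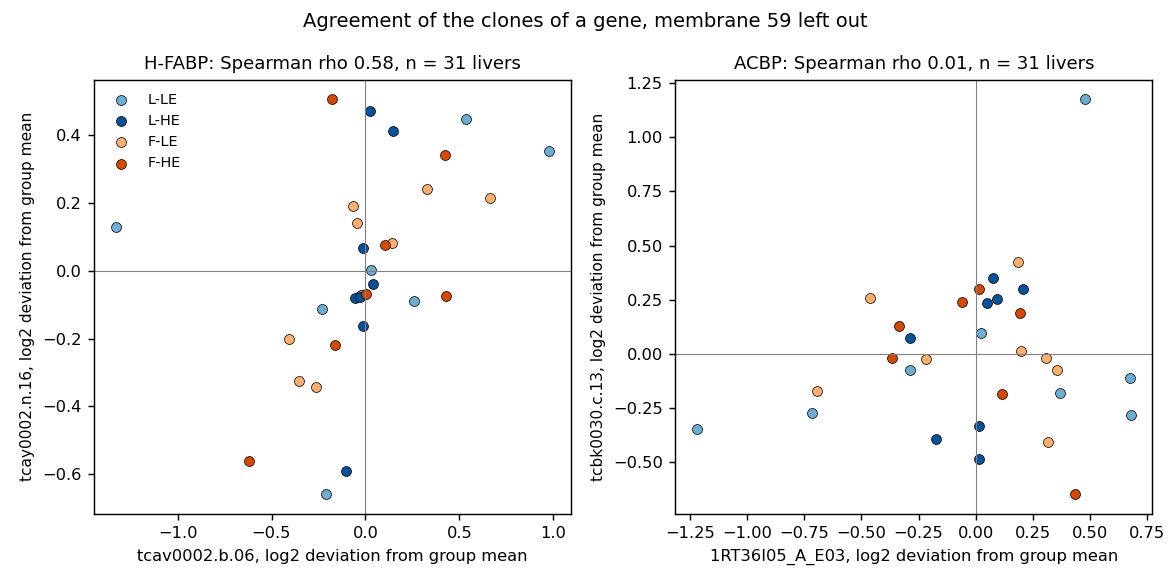
Deviation of each of 31 livers from its group mean (log2) for the 2 clones of H-FABP (left) and of ACBP (right), coloured by group, without membrane 59. The H-FABP livers tend to rise together, with rho 0.58, although 1 L-LE liver lies apart at the left edge (membrane 56) and the L-HE livers spread little along the x axis. The ACBP livers show no trend, with rho 0.0060.

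Other clones were as close to a member as its partner was. As a description over 31 livers without membrane 59, tcay0002.n.16 held rank 17 among all clones in its rho with tcav0002.b.06, and tcav0002.b.06 held rank 13 in its rho with tcay0002.n.16. Of the ACBP clones, tcbk0030.c.13 held rank 4385 for 1RT36I05_A_E03, and the latter rank 3633 for tcbk0030.c.13. Apart from the 4 members themselves, the 3 named clones closest to tcav0002.b.06 were signal peptide peptidase-like 2A (rho 0.61), an intramembrane protease, LIM/homeobox protein Lhx3 (0.55), a transcription factor, and D-3-phosphoglycerate dehydrogenase (0.54), the first enzyme of serine synthesis. For tcay0002.n.16 they were acetylcholinesterase (0.68), cathepsin L (0.67), a lysosomal protease, and ERGIC-53 (0.63), a lectin of the early secretory pathway. For 1RT36I05_A_E03, again apart from the members (tcav0002.b.06 had 0.58), they were the G-protein coupled receptor GPR4 (0.55), THO complex subunit 1 (0.53), of messenger RNA export, and ependymin (0.48), a secreted glycoprotein. For tcbk0030.c.13 they were elongation factor 1-alpha (0.63), zinc finger FYVE domain-containing protein 9 (0.52) and KIAA1219 (0.51). Only 313 of the tested clones are listed in the sources used here, and some of these carry no known name.

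Several of these clones share a library plate with the member, as read from their names, namely D-3-phosphoglycerate dehydrogenase (tcav0002.a.07), cathepsin L (tcay0002.n.01), GPR4 (1RT36J07_B_E04) and THO complex subunit 1 (1RT36H24_D_D12). A clone name gives the library plate, the row letter and the column number, and the clones of a plate were put in order of row and column. The pattern below was looked for after the data had been seen. Over all pairs of clones on 1 plate with values on all 31 arrays (99103 pairs) the median rho was 0.17, against 0.0012 for pairs on different plates. It was highest, 0.47, for clones 2 steps apart in this order, against 0.24 for direct neighbours and 0.16 at 3 steps, and it went on alternating, with 0.29 at 4 steps and 0.11 at 5. The sources used here do not give the place of each clone on the membrane, and the part of position in these values was not tested.

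For the 4 clones, 7 of the 8 clones 2 steps away had a rho above 0.5 with the member, where 46.2% of all pairs at that distance did. They were tcav0002.a.07 (0.54) and tcav0002.c.11 (0.59) for the first H-FABP clone, tcay0002.m.21 (0.61) and tcay0002.o.20 (0.73) for the second, 1RT36H24_D_D12 (0.53) and 1RT36J07_B_E04 (0.55) for the bright ACBP clone and tcbk0030.d.13 (0.61) for the dim one, the exception being tcbk0030.c.01 (-0.0052). All 8 had a lower mean on HE without membrane 59, as had 4126 of all 7759 clones, and 3 were called, against 0.528% of all clones. These were GPR4 (1RT36J07_B_E04) with -0.73 (limma adjusted p = 0.0129), THO complex subunit 1 (1RT36H24_D_D12) with -0.49 (adjusted p = 0.0546) and tcay0002.o.20, of no known name, with -0.48 (adjusted p = 0.0458). With all 32 arrays GPR4 alone of the 8 was called (-0.84, adjusted p = 0.0379). Both of these clones beside the called ACBP clone and 1 of those beside the called H-FABP clone were thus among the 41. Of these 41 clones, 15 had another called clone 2 steps away, and over all 6346 such pairs the diet differences had a Spearman correlation of 0.41.

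When the mean of the clones 2 steps away was subtracted from each clone before the fit, a setting chosen after seeing the data, the diet differences shrank. Without membrane 59, that of 1RT36I05_A_E03 became -0.21 (95% interval -0.48 to 0.062, limma adjusted p = 0.683) and that of tcay0002.n.16 -0.16 (-0.32 to 0.0062, adjusted p = 0.595), so that neither call remained. The difference of tcav0002.b.06 became -0.28 (-0.48 to -0.076, adjusted p = 0.428), and that of tcbk0030.c.13 turned to 0.095 (-0.15 to 0.34, adjusted p = 0.834). For line the subtracted values gave 0.22 (0.013 to 0.42) for tcav0002.b.06 and 0.27 (0.017 to 0.52) for tcbk0030.c.13, and limma called 0 clones for line, with 244 at an unadjusted p under 0.05. The rho of the 2 H-FABP clones over 31 livers became 0.35 (permutation p = 0.0812) and that of the ACBP clones 0.049 (permutation p = 0.797). The subtraction takes away what a clone shares with the other 2, whichever of the 3 it belongs to. All 8 clones taken from the members were lower on HE without membrane 59, so that the shift of the members' diet differences followed from their values. The fit then held 5236 clones, of which 18 were called (0.344%). The plot of correlation against name order shows both the alternation and the members.

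**Figure D4:**
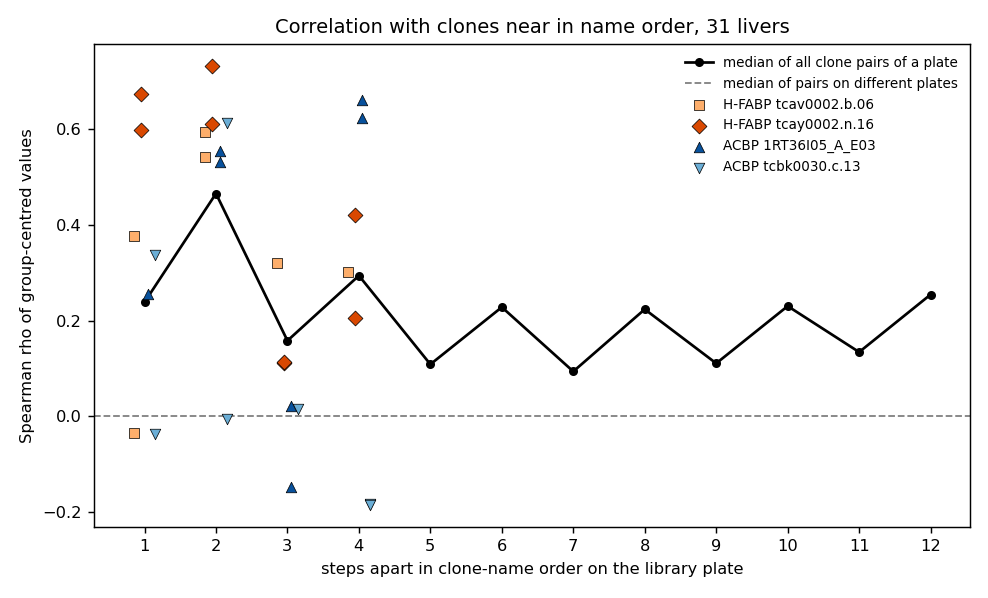
Spearman rho of group-centred values over 31 livers (y axis) against the number of steps between 2 clones in name order on a library plate (x axis). The black line is the median of all clone pairs on a plate, highest at 2 steps (0.47), the dashed line that of pairs on different plates (0.0012), and the symbols are the clones up to 4 steps from each member, some of them overlapping.

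Of 6 further clones of fatty acid handling, 2 were lower on HE and called without membrane 59, where 0.528% of all clones were called. One was FADS, named a putative delta-6 desaturase in the paper, an enzyme of the synthesis of highly unsaturated fatty acids, with a difference of -0.85 (limma adjusted p = 0.0329). The other was the trifunctional enzyme subunit ECHA of mitochondrial beta-oxidation, with -0.43 (adjusted p = 0.0403). Not called were the mitochondrial acetyl-CoA synthetase ACS2L (-0.25), the malonyl-CoA transacylase FABD (0.0084) and the 3-oxoacyl-ACP reductase FABG (0.44), both of mitochondrial fatty acid synthesis, and the sterol carrier NLTP (-0.15). The median of the 6 was -0.20, against -0.014 for all clones tested. With all arrays none of the 6 was called and the median was -0.086. Liver by liver over 31 livers, the highest rho of these clones with a brighter member was 0.26, of FADS with 1RT36I05_A_E03, and the lowest was -0.49, of NLTP with the same clone.

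Of 14 other named lipid clones, 12 had a lower mean on HE without membrane 59, as had 4126 of the 7759 clones tested, and 3 were called, against 0.528% of all, with a median of -0.34. These 3 were the sterol synthesis genes ERG28 (-0.79, limma adjusted p = 0.0169) and DHC24 (-0.85, adjusted p = 0.0233), and THIC, which joins acetyl-CoA units at the start of that pathway (-0.82, adjusted p = 0.0129). With all arrays 2 of the 14, ERG28 and THIC, were called. Liver by liver over 31 livers, the rho of the 14 clones with a brighter member ran from -0.20 to 0.58. That of ERG28 with tcav0002.b.06 was 0.52. None of the 20 lipid clones was called for line in either setting. These lists hold clones that the study picked on the same fish, so that their direction is not independent evidence.

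H-FABP is made in muscle and heart as well as in fish liver, and 4 muscle transcripts were set beside it. Parvalbumin (PRVA), a calcium buffer of white muscle, differed by -0.54 on HE without membrane 59 (limma adjusted p = 0.0301) and by -0.53 with it (adjusted p = 0.0709), while titin (0.057), MYOD2 (0.40) and SMYD1 (-0.081) were not called. Their summed signal ran on LE from 5.19 to 5.44 (L) and from 5.08 to 5.41 (F), and on HE from 4.88 to 5.40 (L) and, without membrane 59, from 4.76 to 5.21 (F), so that it was lower at both ends on HE. The highest rho of these 4 with an H-FABP clone was 0.32, of MYOD2 with tcav0002.b.06, and PRVA had 0.13 and 0.29. The red cell markers B3AT (0.47) and RHAG (-0.083) were not called for diet, and their summed signal had medians of 2.82 and 2.80 on LE in L and F and of 3.28 and 3.09 on HE. All 7 liver markers, APA11, CO3, TTHY, PLMN, A2MG, LECT2 and CFAH, were brighter than 94.6% or more of the clones tested, and of these only LECT2 was called for diet (-0.92, adjusted p = 0.0924 without membrane 59), with CO3 at -0.50, CFAH at 0.17, APA11 at 0.40 and TTHY, PLMN and A2MG between -0.0088 and 0.029. The summed signal of these 7 had medians of 7.91 and 7.57 on LE in L and F and of 7.62 and 7.44 on HE, all arrays included. The part of muscle or blood cells in the H-FABP and ACBP values was not tested.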

How the data were processed

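Total RNA of 32 trout livers was hybridized to nylon arrays, 1 liver per array. The authors measured the radioactivity of each spot, set aside spots poor in DNA, corrected the rest by an oligonucleotide hybridization of the same membrane, divided by the median of the array and deposited the log10 values. The oligonucleotide hybridization adds its own error, and the division makes each value relative to the rest of the array. Spots set aside carry a bare 0 and were read as missing (41354 values). A zero with decimals is a measured value (17 of them). Between 7613 and 8134 clones had a value on an array. Clone names come from the study's additional files.

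After conversion to log2, limma 3.58.1 (R 4.3.3) was fitted with 1 mean per group for the 7763 clones that had 5 or more values in every group. A clone was called at an adjusted p (Benjamini-Hochberg) below 0.15, the rate used in the study's methods. The study's tests used fewer livers per group, which were not identified here, and the fits hold all 8. The number after the slash in a sample's title was read as the membrane number, and the number after the group in its condition label as the tank. Every tank mean and test over tanks rests on this reading. Single clones were also compared by two-sided exact permutation tests over livers or tank means, and liver by liver by correlations of group-centred values (scipy 1.17.1). Named clones are the 4 members, every clone of the fatty acid handling and marker lists, the other lipid clones that were called, and for each member the 3 named clones of highest rho without membrane 59. The clones 2 steps away in name order were picked with their values in view. The members and lists were chosen with earlier results of these data known. The fit was tested on simulated data with independent normal noise for each clone. Such data hold no outlying array and no correlation between clones, so that this test does not cover those features. Alternatives left out membrane 59, each other array or the 6 arrays of low correlation, which include every liver of tank 2 of L-LE. Others changed the normalization, the centring, the filter or the variance model, took tank as a random term, tank number as a replicate block, tank means or the membrane number as covariate, weighted the arrays, or used the two-way ANOVA of the study's methods.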

Additional observations from a re-analysis of the deposited data

Results flagged for a closer look

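Of 16 sets of 8 livers (4 clones in 4 groups), 4 held a liver whose gap to the nearest other was over 0.526 of the range of the set, where chance gives about 1 in 20. In 3 of them the liver was that of membrane 59 in F-HE. H-FABP clone tcav0002.b.06 read -1.30 there against 2.29 for the next lowest liver, H-FABP clone tcay0002.n.16 read 0.039 against 3.88, and ACBP clone 1RT36I05_A_E03 read -1.06 against 3.93. The fourth was the L-LE liver of membrane 68, where ACBP clone tcbk0030.c.13 read -0.90 against -1.98 for the next highest. Membrane 68 is 1 of the 6 arrays with a median correlation under 0.9, and on it the other 3 clones lay within their group. Without this array the L-HE minus L-LE difference of tcbk0030.c.13 was -0.073, against -0.24 with it. The cause of these values was not tested.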

How the results depend on the processing

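No alternative turned a diet difference of the 3 brighter clones to higher on HE, whereas diet calls and the sign of the line difference of 2 clones changed without membrane 59. For diet with all arrays as the base, tcay0002.n.16 was called without membrane 59 (-0.52), without the 6 arrays of low correlation (-0.53) and with array weights (-0.53), 1RT36I05_A_E03 in the same settings (-0.82, -0.95 and -0.90) and by the two-way ANOVA (-1.16), and tcav0002.b.06 without the 6 arrays (-0.71) and with weights (-0.67). Over 31 arrays, tcav0002.b.06 was called at -0.61 once membrane 56 was also left out, within a range of -0.61 to -0.44. In the same 3 settings the line difference turned to higher in F, with 0.13, 0.16 and 0.13 for tcay0002.n.16 and 0.17, 0.021 and 0.020 for 1RT36I05_A_E03. The F-HE minus L-HE difference likewise turned to 0.24, 0.17 and 0.15 for tcav0002.b.06 and to 0.14, 0.15 and 0.069 for tcay0002.n.16, and without membrane 59 or the 6 arrays to 0.082 and 0.0099 for 1RT36I05_A_E03. Over tank means without membrane 59, the line difference was 0.45 for tcav0002.b.06, past 0.05, and turned to 0.17 for tcay0002.n.16 and 0.25 for 1RT36I05_A_E03. The interaction of tcay0002.n.16 turned to 0.012 without membrane 59. For the dim clone tcbk0030.c.13, quantile normalization turned the interaction to -0.22, L-HE minus L-LE to 0.0054 and F-HE minus L-HE to -0.022, leaving out single arrays gave an interaction from -0.078 to 0.18 and F-LE minus L-LE from -0.016 to 0.21 (-0.0049 without membrane 56, -0.016 without membrane 40), and a filter that drops the dimmest clones gave no value. Subtracting the clones 2 steps away, a setting chosen after seeing the data, turned F-LE minus L-LE of tcay0002.n.16 to -0.067, the diet difference of tcbk0030.c.13 to 0.041, its interaction to -0.36 and its L-HE minus L-LE to 0.22. Over 31 arrays it ended the diet calls of tcay0002.n.16 (-0.16) and 1RT36I05_A_E03 (-0.21), turned that of tcbk0030.c.13 (0.095) and the line differences of tcay0002.n.16 (-0.031) and 1RT36I05_A_E03 (-0.033), and took the rho of the H-FABP clones to 0.35, no longer past 0.05.

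Counts of clones called for diet, 19 with all arrays, were 41 without membrane 59, 74 without the 6 arrays, 34 with the membrane number as covariate, 104 with array weights, 86 by the ANOVA, 0 over tank means, and 14 to 23 with 1 other array left out. Over 31 arrays they were 33 to 63 with 1 further array left out (63 without membrane 20). For line they were 0 with all arrays, 1 without membrane 59, 2 without the 6 arrays, 12 with weights, 53 by the ANOVA and 0 to 1 with 1 other array left out (1 without membrane 67). For the interaction they were 0 with all arrays, 4 with weights and 53 by the ANOVA. Tanks of the same number in different groups are different tanks, so that the numbers do not pair livers. With tank number as a replicate block the diet differences were -0.77, -0.79, -1.13 and -0.18 for tcav0002.b.06, tcay0002.n.16, 1RT36I05_A_E03 and tcbk0030.c.13, 21 clones were called for diet and 1 for the interaction, and no call of the 4 clones changed. The cause of these changes was not tested. Limits are the single tissue, 3 tanks per group, the unknown place of clones on the membrane, and, for tcbk0030.c.13, a signal near the lower end of the array.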
